A study of Mus musculus with 8 samples.

Results

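AG120 given alone was compared with Vehicle by the methylation level of CpG cytosines in mouse I1DN leukaemic progenitors, named as in the labels. The AG120 group was progenitors of transplanted mice given AG120 (ivosidenib, an inhibitor of mutant IDH1) for 5 days, and the Vehicle group was the same cells from transplanted mice given Vehicle for 5 days. Cells of both groups were cKit positive and Cd11b negative, and each group had 2 libraries of the 8 in the series. The labels do not say whether the replicates of a group came from separate mice, so every p-value measures only the spread between libraries, which may be technical. They give no promoter, clone or host detail for the leukaemia.

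The assay was RRBS, reduced representation bisulfite sequencing. It sequences short restriction fragments, which are rich in CpG, after bisulfite has converted unmethylated cytosines. The level of a position is the percentage of its reads that call the cytosine methylated. Members were autosomal CpG positions with at least 20 reads in each of the 4 libraries, and tiles of 1000 bp with at least 3 covered positions and at least 20 reads in each. They numbered 126788 of 3883480 autosomal positions (3.26%) and 51196 of 320276 tiles with any read (16.0%). Gene windows were cut by the same minimum. Of 15598 windows, 11503 ran from 1000 bp before to 500 bp after a gene start whose strand was known, and 4095 lay at a gene end with no strand, so the end windows are not known to be promoters.

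IDH1 normally makes 2-oxoglutarate from isocitrate, and the mutant enzyme turns 2-oxoglutarate into 2-hydroxyglutarate. That metabolite competes with 2-oxoglutarate in the TET enzymes, which oxidise 5-methylcytosine, and in the histone demethylases of the same family. IDH-mutant myeloid leukaemias are known for raised DNA methylation at CpG-rich regulatory DNA, and AG120 blocks production of 2-hydroxyglutarate by the mutant enzyme. RRBS does not separate 5-methylcytosine from 5-hydroxymethylcytosine, so a level here is the sum of both.

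The promoters of 6 genes show part of the windows at which the libraries of the 2 groups stood apart with the smallest p. All 6 are CG-rich starts that were almost free of methylated reads in one group. The sequences are RefSeq's on GRCm38.p6, each 300 bases on the strand of its gene. Capitals mark each CG at which at least 1 library of the higher group had a methylated read, the higher group being Vehicle for Utp4, Cc2d1b and Srrm1 and AG120 for Kpnb1, Tmem131 and Mtmr12. They lie at chr8:106893390-106893689 (plus strand) for Utp4, chr4:108619706-108620005 (plus) for Cc2d1b, chr4:135353097-135353396 (minus) for Srrm1, chr11:97187843-97188142 (minus) for Kpnb1, chr1:36939478-36939777 (minus) for Tmem131 and chr15:12204778-12205077 (plus) for Mtmr12.
Utp4: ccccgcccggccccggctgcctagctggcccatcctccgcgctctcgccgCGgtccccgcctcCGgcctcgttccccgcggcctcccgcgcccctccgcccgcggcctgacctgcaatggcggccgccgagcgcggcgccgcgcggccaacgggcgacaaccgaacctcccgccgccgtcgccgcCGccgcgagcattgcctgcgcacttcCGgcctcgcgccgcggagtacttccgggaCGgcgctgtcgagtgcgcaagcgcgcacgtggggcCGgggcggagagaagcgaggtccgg
Cc2d1b: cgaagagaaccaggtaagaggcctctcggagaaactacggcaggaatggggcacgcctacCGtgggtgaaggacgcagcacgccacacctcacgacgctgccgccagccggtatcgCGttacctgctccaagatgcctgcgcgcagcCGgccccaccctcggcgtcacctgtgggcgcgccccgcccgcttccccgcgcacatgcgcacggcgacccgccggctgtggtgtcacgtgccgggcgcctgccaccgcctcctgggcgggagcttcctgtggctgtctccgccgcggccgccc
Srrm1: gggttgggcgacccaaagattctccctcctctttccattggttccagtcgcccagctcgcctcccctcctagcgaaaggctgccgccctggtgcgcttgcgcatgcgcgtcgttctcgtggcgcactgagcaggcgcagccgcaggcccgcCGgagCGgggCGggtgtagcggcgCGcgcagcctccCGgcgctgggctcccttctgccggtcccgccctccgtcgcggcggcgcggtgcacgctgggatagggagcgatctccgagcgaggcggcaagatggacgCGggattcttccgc
Kpnb1: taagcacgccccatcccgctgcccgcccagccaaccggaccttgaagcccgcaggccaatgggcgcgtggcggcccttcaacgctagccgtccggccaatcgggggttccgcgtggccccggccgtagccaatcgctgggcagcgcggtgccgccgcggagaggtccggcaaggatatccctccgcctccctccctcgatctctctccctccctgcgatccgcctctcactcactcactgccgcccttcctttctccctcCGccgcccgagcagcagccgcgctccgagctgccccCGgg
Tmem131: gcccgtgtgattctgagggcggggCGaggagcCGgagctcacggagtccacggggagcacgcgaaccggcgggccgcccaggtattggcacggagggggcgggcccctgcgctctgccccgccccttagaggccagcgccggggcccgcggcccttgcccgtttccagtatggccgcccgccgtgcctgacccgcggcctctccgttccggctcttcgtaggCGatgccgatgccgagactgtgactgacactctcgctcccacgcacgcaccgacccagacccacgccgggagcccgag
Mtmr12: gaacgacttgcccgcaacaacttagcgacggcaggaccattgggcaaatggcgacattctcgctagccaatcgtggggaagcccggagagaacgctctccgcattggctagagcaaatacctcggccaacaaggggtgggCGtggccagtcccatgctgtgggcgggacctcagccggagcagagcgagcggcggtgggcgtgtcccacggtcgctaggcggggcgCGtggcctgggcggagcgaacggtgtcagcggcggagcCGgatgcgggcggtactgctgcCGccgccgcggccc

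Few of the CGs carried the methylated reads. The printed stretches hold a part of the methylated reads of the higher group in each window, 253 of 551 at Utp4, 89 of 446 at Cc2d1b, 200 of 717 at Srrm1, 66 of 282 at Kpnb1, 102 of 246 at Tmem131 and 166 of 265 at Mtmr12. The Srrm1 stretch had only 17 reads in AG120 replicate 1. The Utp4 sequence holds 56 CGs, of which 6 are in capitals. The Srrm1 sequence has 6 of 40 in capitals, Cc2d1b 3 of 38, Mtmr12 4 of 35, Tmem131 3 of 38 and Kpnb1 2 of 35. Each promoter also holds the RRBS cutting site CCGG at least 3 times, and 52.8% of 32851 promoters of this length in the RefSeq table hold it at least once.

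The total number of CpG calls was 98639402 and 110137175 in the AG120 libraries and 119441709 and 130796962 in the Vehicle libraries. The AG120 libraries read 1519107 and 1697607 autosomal positions, and the Vehicle libraries 1940123 and 1862733. At member positions the median depth differed little, with 127 and 118 reads in AG120 and 126 and 140 in Vehicle. Gene windows had median totals of 2152 and 2078 reads in AG120 and 3257 and 3735 in Vehicle. The AG120 libraries were thus the shallower and less broadly covered ones, and depth and coverage moved with the treatment. PCR reads are not independent molecules, so upper limits given for a count of 0 (3 counts of the reads) cover counting error only.

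Averaged over all members, the methylation level with AG120 differed from that with Vehicle by less than the spread between replicates. With each tile counted once, the mean level was 49.2% and 51.2% in the AG120 libraries and 49.6% and 50.7% in the Vehicle libraries. The difference was 0.0221 percentage points, against an SD of 1.39 points among AG120 libraries and 0.729 among Vehicle libraries (n = 2 each). Positions averaged 32.2% and 33.5% in AG120 and 32.2% and 33.0% in Vehicle, a difference of 0.232 points. With 2 libraries against 2 an exact two-sided permutation test cannot give a p under 0.333. Across tiles, replicates of a group were no more alike than libraries of different groups. Pearson's r was 0.898 within AG120, 0.917 within Vehicle and 0.894 to 0.918 between the groups, over tiles that share the same 4 libraries.

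The same held by place and by CpG density. Tiles that overlap a gene-start window had low levels, with 11.1% and 12.4% in AG120 and 11.3% and 11.6% in Vehicle. Tiles inside genes averaged 60.3% and 62.5% in AG120 and 60.9% and 62.1% in Vehicle. Tiles outside genes averaged 70.9% and 73.1% in AG120 and 71.4% and 73.0% in Vehicle. The groups overlapped in all 3 places. Tiles with 60 or more covered positions, the densest class, averaged 8.97% and 9.68% in AG120 and 8.56% and 9.07% in Vehicle. By chromosome, the AG120 mean was lower on 9 autosomes and higher on 10, with differences from -0.353 points on chromosome 5 to 0.442 points on chromosome 12, and the groups overlapped on each of them.

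**Figure D1:**
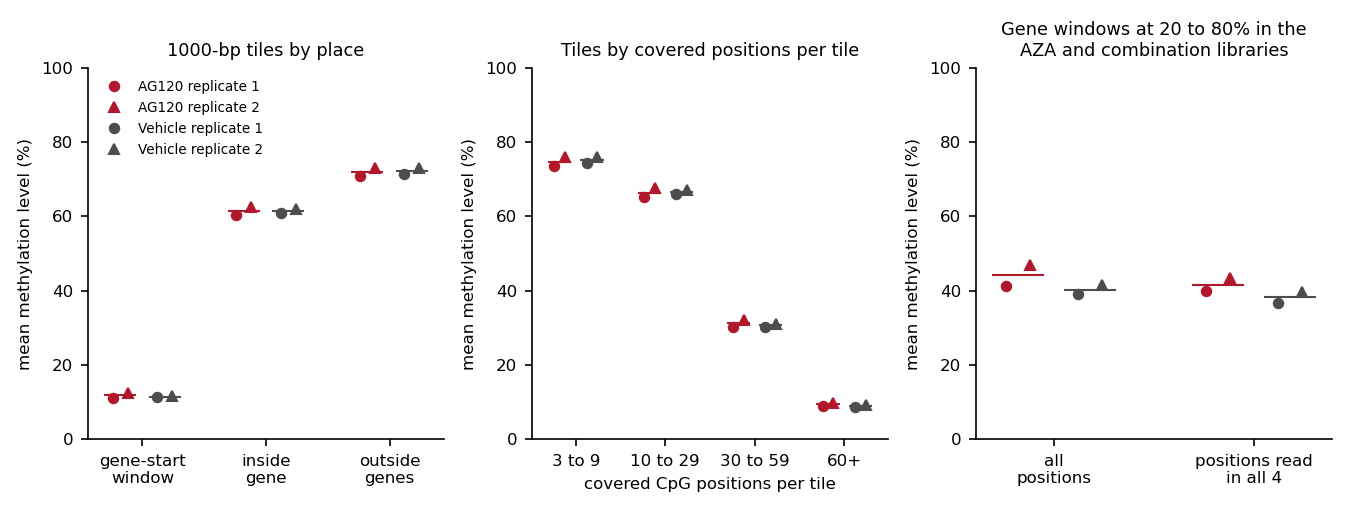
Mean methylation level (percent, y axis) of each library for 1000-bp tiles by place and by number of covered CpG positions, and for gene windows that were at 20 to 80% in the AZA and combination libraries; horizontal lines are means of 2 libraries. The AG120 and Vehicle points overlap in every class of tiles, while the gene windows at 20 to 80% sit at 39.8% and 43.3% in AG120 and 36.8% and 39.8% in Vehicle when only positions read in all 4 libraries count.

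Weighting by reads gave another picture. When every read counted once, the level of member tiles was 30.6% and 36.0% in AG120 and 23.5% and 22.7% in Vehicle, a difference of 10.2 points. For member positions it was 38.8% and 44.6% in AG120 and 34.3% and 34.3% in Vehicle, a difference of 7.36 points (exact permutation p = 0.333). The AG120 libraries thus spent a larger share of their reads on methylated sites, while the mean level with each site counted once differed by less than the spread between replicates. The part of library composition in this difference was not tested.

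The groups stood apart at the bottom of the scale. Of the gene windows, 23.9% and 22.3% had no methylated read at all in the AG120 libraries, against 12.0% and 10.5% in the Vehicle libraries. The difference of 11.8 points exceeded the SD of each group, 1.15 points in AG120 and 1.02 in Vehicle (n = 2 each), and the groups did not overlap. Windows with a level over 1% and up to 5% made up 18.8% and 20.4% in AG120 and 30.2% and 32.4% in Vehicle. The median window level was 1.43% and 1.94% in AG120 and 2.19% and 2.18% in Vehicle. Tiles went the same way, with no methylated read in 15.0% and 13.9% of them in AG120 and in 8.75% and 8.03% in Vehicle.

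Depth moved with this result. When 20 reads of each window were drawn, the expected share of windows with no methylated read was 59.2% and 56.5% in AG120 and 55.1% and 54.5% in Vehicle, a difference of 3.10 points. The groups still did not overlap, and the SD of the AG120 libraries was 1.90 points. With only positions read in all 4 libraries the difference was 10.8 points. In windows with a mean level under 20%, the methylated reads of a library came from a median of 2 positions in AG120 and 3 in Vehicle. A single position held a median of 91.0% and 87.6% of them in AG120 and 68.7% and 65.4% in Vehicle.

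Single positions were more often all or nothing in AG120. Among the 10175 positions with a mean level of 30 to 70%, 50.4% and 46.2% stood at exactly 0 or 100% in the AG120 libraries and 38.0% and 35.6% in the Vehicle libraries. Positions with a mean level under 20% averaged 1.03% and 1.39% in AG120 and 1.84% and 2.10% in Vehicle. Positions with a mean level over 80% averaged 97.5% and 97.4% in AG120 and 96.5% and 97.0% in Vehicle. The groups did not overlap in either class, but these classes are cut from the same 4 libraries and are a description. When positions were classed by the AZA and combination libraries instead, those under 20% averaged 4.28% and 4.76% in AG120 and 3.96% and 4.35% in Vehicle. Those over 80% averaged 91.9% and 93.6% in AG120 and 92.6% and 93.9% in Vehicle. There the mean levels of the groups overlapped and neither mean was more extreme in AG120. Values with no methylated read were still more common in AG120 in the class under 20%, at 87.3% against 83.3% in Vehicle. The median depth in that class was 145 reads in AG120 and 192 in Vehicle. The number of distinct molecules behind the reads is not given in the sources used here, and its part in the extremes was not tested.

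**Figure D2:**
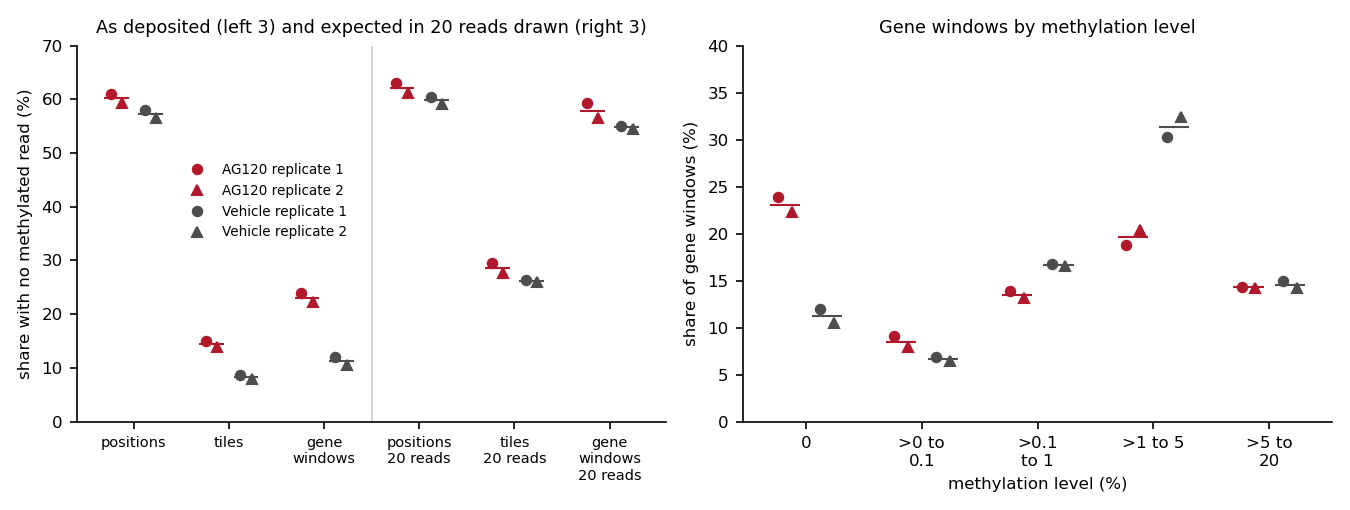
Share (percent, y axis) of member positions, tiles and gene windows with no methylated read in each library, as deposited and computed for 20 reads drawn, and the share of gene windows by methylation level; horizontal lines are means of 2 libraries. Gene windows with no methylated read reached 23.9% and 22.3% in AG120 and 12.0% and 10.5% in Vehicle, while windows over 1% and up to 5% were fewer in AG120.

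Gene windows of intermediate level leaned the other way, with higher mean values in AG120. To keep the classes apart from the values compared, windows were classed by their mean level in the 4 libraries of mice given AZA (azacitidine, a DNA methyltransferase inhibitor) or AZA with AG120 (the combination). The combination mice were also given AG120, so the classes share no library with the comparison but are not independent of the drug. The part of this choice in the class means and counts was not tested. The 1715 windows at 20 to 80% there averaged 41.3% and 46.9% in AG120 and 39.1% and 41.5% in Vehicle, a difference of 3.78 points with overlapping groups. In this class AG120 was higher by at least 20 points without overlap in 177 windows (10.3%) and lower by as much in 93 (5.42%). Over all windows these shares were 2.21% higher (345 windows) and 1.16% lower (181 windows).

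The lean was also seen where the libraries covered the same positions. From only positions read in all 4 libraries, the 1219 windows of the class averaged 39.8% and 43.3% in AG120 and 36.8% and 39.8% in Vehicle. The difference was 3.30 points and the groups did not overlap, though AG120 replicate 1 and Vehicle replicate 2 were nearly equal. AG120 was then higher by at least 20 points without overlap in 141 windows (11.6%) and lower in 58 (4.76%). Single positions in the same class gave 50.7% and 54.3% in AG120 and 49.1% and 50.4% in Vehicle, over 4678 positions. Without AG120 replicate 2 the window difference was 1.01 points, without AG120 replicate 1 it was 6.56, and without Vehicle replicate 1 it was 2.59, so AG120 replicate 2 carried much of it.

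The neighbouring classes had smaller differences. Windows over 80% in the AZA and combination libraries averaged 90.0% and 91.7% in AG120 and 89.9% and 91.5% in Vehicle. Windows under 20% there averaged 3.33% and 3.91% in AG120 and 3.30% and 3.39% in Vehicle. By at least 20 points without overlap, 63 windows were higher and 22 lower under 20%, and 29 higher and 25 lower over 80%. More higher than lower windows were thus seen in every class, not only at 20 to 80%. From positions read in all 4 libraries the counts were 54 and 46 under 20%, and 14 and 18 over 80%. Among tiles of 20 to 80% the levels were 54.1% and 58.5% in AG120 and 54.1% and 55.7% in Vehicle, with AG120 higher by at least 20 points in 10.8% of tiles and lower in 8.46%. The difference over tiles of this class was 1.37 points with overlapping groups, and its gap to that of the windows was not tested.

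**Figure D3:**
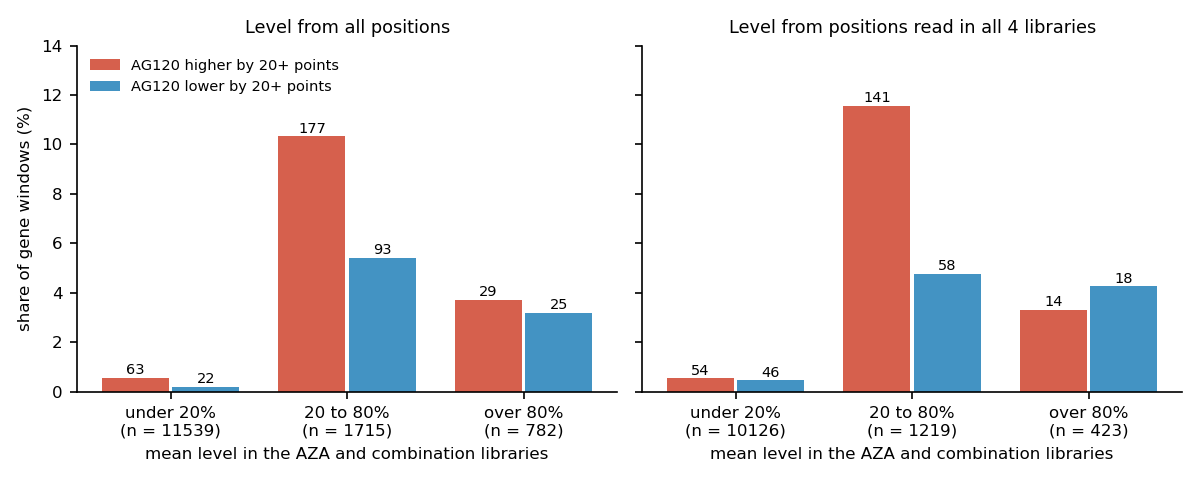
Share of gene windows (percent, y axis) in which AG120 was higher or lower than Vehicle by at least 20 percentage points with no overlap between the groups, by mean level in the AZA and combination libraries (x axis); numbers over the bars count windows. At 20 to 80% the higher windows outnumber the lower ones, 177 against 93 from all positions and 141 against 58 from positions read in all 4 libraries.

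No region passed the test for a difference between AG120 and Vehicle. Methylated and unmethylated counts were fitted with edgeR's quasi-likelihood test, with Benjamini-Hochberg adjustment over all features tested and a false discovery rate of 0.05. Of 49258 tested tiles 0 passed (0%) and 1741 had an unadjusted p under 0.05 (3.53%). Of 15308 tested gene windows 0 passed (0%) and 703 had an unadjusted p under 0.05 (4.59%). For tiles, limma called 0, DESeq2 46 and edgeR's likelihood ratio test 541, of which 328 were lower with AG120. For windows, limma and DESeq2 each called 0 and the likelihood ratio test 348, of which 276 were lower.

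Lower and higher regions differed in number and in size. Without overlap between the groups, 8774 tiles were lower with AG120 (17.1%) and 6508 higher (12.7%), and 3181 windows were lower (20.4%) and 1894 higher (12.1%). By at least 20 points, 1909 tiles were lower (3.73%) and 1974 higher (3.86%). Lower windows had a median level of 0.135% in AG120 and 2.51% in Vehicle, and higher windows 11.6% in AG120 and 2.88% in Vehicle. The lower windows were more numerous but small, with a median difference of -2.21 points, against 6.41 points for the higher ones. A level cannot fall below 0%, so from these Vehicle medians a lower window had little room to fall. Both sets were also chosen by their direction, so the sizes are a description. In 774 of the lower windows both AG120 libraries had no methylated read, and in 71 of the higher ones both Vehicle libraries had none.

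Single positions gave the only calls. Of 54504 tested positions 12 passed (0.022%), of which 9 were higher with AG120 (0.0165%) and 3 lower (0.0055%), while 188 had an unadjusted p under 0.05 (0.345%). Without overlap 4434 positions were lower (3.5%) and 4411 higher (3.48%). Limma and the likelihood ratio test each called 0 positions. All 12 were among the most deeply read, with a mean depth at or above the 99.4th percentile of member positions. The count depended on the libraries, with 107 calls without AG120 replicate 1, 36 without AG120 replicate 2, 1 without Vehicle replicate 1 and 4 without Vehicle replicate 2, and 27 with the replicate number as a block.

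The position with the smallest p lay in Sfi1, which encodes a centrin-binding protein of centrioles, at position 3193474 of chromosome 11. It was methylated in 100% and 100% of reads in AG120 and in 86.6% and 78.7% in Vehicle (adjusted p = 3.95e-09). A neighbour in the same gene, at position 3193458, had 100% and 99.4% in AG120 and 86.0% and 86.5% in Vehicle (adjusted p = 0.0315). In each of these the AG120 libraries were at or near full methylation and both Vehicle libraries below it. The 2 positions had nearly the same depth in each library, such as 1801 and 1799 reads in Vehicle replicate 1. They may thus come from the same reads and are not independent calls. The call at position 3193458 was lost with a minimum of 10 reads and without either Vehicle library. The other positions that were higher, apart from one near the ribosomal RNA sequence Rn18s-rs5, also stood above 98% in both AG120 libraries.

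At the Rn18s-rs5 position, 2475 bp from that sequence, the level was 30.8% and 55.8% in AG120 and 14.6% and 12.9% in Vehicle (adjusted p = 0.0178). In Otx2os1, the opposite-strand transcript of the homeobox gene Otx2, a position at 48669597 of chromosome 14 fell to 0.0452% and 1.138% in AG120, against 12.2% and 24.4% in Vehicle (adjusted p = 0.00159). A position 39922 bp from Gm33780 had 52.0% and 56.3% in AG120 and 63.1% and 57.0% in Vehicle (adjusted p = 0.0156), from 93338 to 125975 reads a library. This call was lost with the replicate number as a block, with a minimum of 50 reads and without any 1 of the 4 libraries, and the difference ranged from -8.94 to -2.81 points without 1 library at a time. The Otx2os1 and Rn18s-rs5 calls were lost without either Vehicle library, while that at position 3193474 in Sfi1 was kept without each library in turn. Reads from near-identical repeat copies could be assigned to such positions, and which copies were read is not given in the sources used here.

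None of the named windows passed the test, and all had an adjusted p of 1 by edgeR's quasi-likelihood test. The lowest p among the lower windows was at Utp4, a component of the small-subunit processome in ribosome assembly, whose window also overlaps Chtf8 and Derpc. It had 0.0108% and 0.0228% in AG120 and 4.08% and 3.35% in Vehicle (unadjusted p = 0.00202). In the AG120 libraries 1 and 2 reads were methylated, of 9240 and 8773, and in the Vehicle libraries 310 and 241, of 7592 and 7199. The Vehicle reads came from 7 and 6 positions of the 83 and 74 that were read, some of which are the capitals in the Utp4 sequence above. From the 18 positions read in all 4 libraries the level was 0.0481% and 0.0448% in AG120 and 0.0276% and 4.98% in Vehicle, so the difference there rested on Vehicle replicate 2.

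Other lower windows had the same shape. Cc2d1b, which encodes a C2-domain partner of the ESCRT-III membrane machinery, shared its reads with Gm12743. It had no methylated read in AG120, among 6296 and 10839 reads, which allows up to 0.0175% over the group, and 3.63% and 1.65% in Vehicle. Srrm1, a splicing coactivator, had 0.0153% and 0% in AG120 and 2.55% and 2.16% in Vehicle. Med13l, a subunit of the Mediator kinase module, had 0.0373% and 0.0930% in AG120 and 2.87% and 2.79% in Vehicle. The groups stood apart in each of these windows, and all levels were under 5%. At gene ends, Mrpl38 (mitochondrial ribosome) and Pdp1 (pyruvate dehydrogenase phosphatase) were at or under 0.0129% in AG120 and between 0.740% and 1.61% in Vehicle. From positions read in all 4 libraries Pdp1 had 0% and 0% in AG120 and 0.0518% and 0.485% in Vehicle. On such positions Cc2d1b had 0% and 0% in AG120 and 2.10% and 0.875% in Vehicle. Srrm1 had 0% and 0% against 5.32% and 2.35%, and Med13l 0.147% and 0% against 1.07% and 7.72%. Mrpl38 had 0.0136% and 0.0134% against 2.31% and 2.29%, so the groups stayed apart in these windows.

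Among the higher windows, Kpnb1, which encodes the nuclear import receptor importin beta, had 2.89% and 2.52% in AG120 and 0.0724% and 0.0754% in Vehicle (unadjusted p = 0.00594). In AG120 replicate 1 a single position held 92.1% of its methylated reads, and the printed sequence, with 2 CGs in capitals, had no methylated read in that library. From the 63 positions read in all 4 libraries Kpnb1 had 0.306% and 0.827% in AG120 and 0.119% and 0.107% in Vehicle, a much smaller gap. Tmem131, a transmembrane protein gene, had 1.36% and 1.44% in AG120 and 0.0117% and 0.0812% in Vehicle. Mtmr12, which encodes an inactive myotubularin-family phosphatase, had 2.31% and 5.99% in AG120 and 0.0125% and 0.0181% in Vehicle. These windows too stood apart by a few percent, on 2 to 5 positions a library. From positions read in all 4 libraries Tmem131 had 1.90% and 0.318% in AG120 and 0% and 0.101% in Vehicle. Mtmr12 had 4.01% and 5.99% in AG120 and 0.0214% and 0% in Vehicle on such positions.

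The remaining higher windows were Ipcef1, Gm38546 with Prelid3b on the same reads, and Alg5. Ipcef1, a partner of cytohesins whose window overlaps Oprm1, had 8.25% and 5.11% in AG120 and 0.0173% and 0.0236% in Vehicle. Its AG120 values came from few positions, since one held 99.6% of the methylated reads of replicate 1. From the 9 positions read in all 4 libraries Ipcef1 had 0.0481% and 5.11% in AG120 and 0.02% and 0.0283% in Vehicle, so the difference there rested on AG120 replicate 2. Alg5, an enzyme of N-glycan assembly, had 1.71% and 2.70% in AG120 and 0.0249% and 0.0220% in Vehicle, with only 409 reads in AG120 replicate 1. From positions read in all 4 libraries Alg5 had 2.63% and 0.2398% in AG120 and 0% and 0.0847% in Vehicle. Gm38546 had 8.79% and 3.97% in AG120 and 0% and 0% in Vehicle on such positions.

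**Figure D4:**
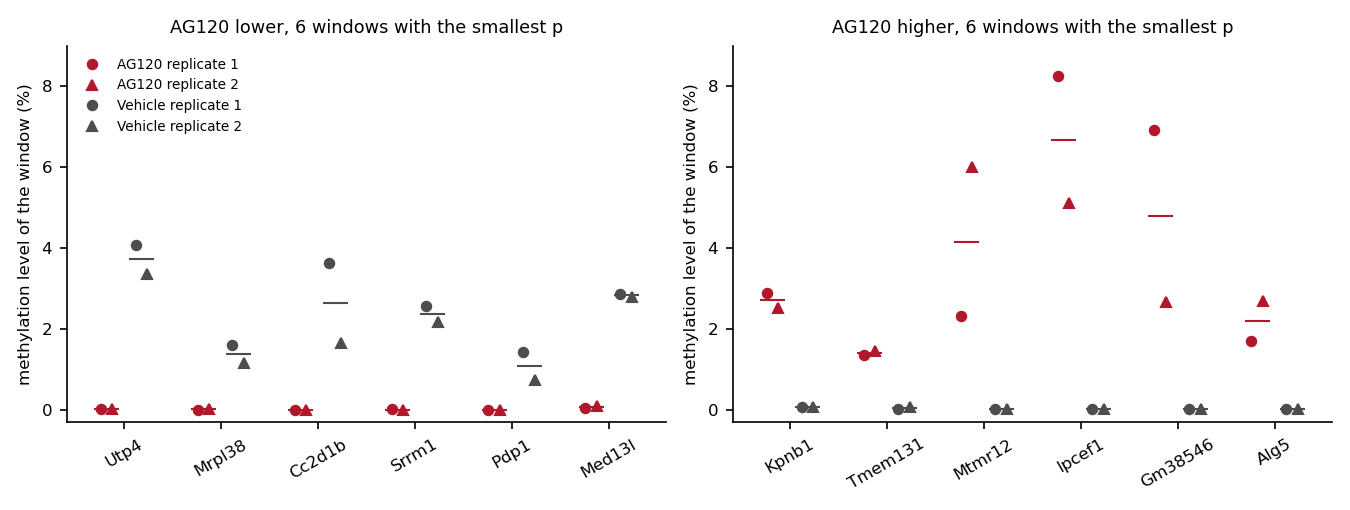
Methylation level (percent, y axis) in each library for the 6 lower and the 6 higher gene windows with the smallest p; horizontal lines are means of 2 libraries. In every window the group that is lower sits under 0.1%, and the other group reaches at most 8.25%.

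Among tiles with at least 100 reads a library, the widest gaps were far larger than those of the windows. A tile in Hoxb3, a homeobox gene of the HoxB cluster, had 95.1% and 100% in AG120 and 3.73% and 9.86% in Vehicle, at chr11:96339001-96340000. The AZA and combination libraries stood between 99.1% and 100% in that tile, as AG120 did. A tile in Slit2, a secreted guidance ligand, had 100% and 100% in AG120 and 46.9% and 0% in Vehicle. One in Celf4, an RNA-binding protein gene, had 94.7% and 99.7% in AG120 and 5.20% and 1.10% in Vehicle. In each of the 3 both AG120 libraries were near full methylation, on 3 to 5 positions read a library. The positions read in all 4 libraries numbered 1 in Hoxb3 and 2 each in Slit2 and Celf4.

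The widest lower tile lay 7269 bp from Dcaf10, which encodes a substrate receptor of a cullin ubiquitin ligase, with 1.32% and 13.6% in AG120 and 84.7% and 100% in Vehicle. Next to it in size was a tile 8214 bp from Ces1a, a carboxylesterase gene, with 13.7% and 2.84% in AG120 and 99.1% and 80.6% in Vehicle. Their p-values, 0.0671 and 0.0540 before adjustment, were larger than those of the small window differences. From the 2 positions read in all 4 libraries the Ces1a tile had 4.55% and 0% in AG120 and 0% and 50% in Vehicle. The Vehicle values there rest on only 2 and 8 reads. The 8 widest tiles shared few positions between libraries, with 1 to 3 read in all 4. By edgeR's quasi-likelihood test none of the 8 widest had an adjusted p under 1. DESeq2 called the Celf4 and Slit2 tiles, and edgeR's likelihood ratio test called those and the Hoxb3 tile.

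No gene of the IDH and DNA methylation machinery passed the test. The list held IDH, TET, DNMT, MBD and 2-hydroxyglutarate dehydrogenase genes, and 23 of its 26 genes were measured. Of these 0 passed, 12 were lower and 11 higher with AG120, and 4 were lower and 3 higher without overlap, at background shares of 20.4% and 12.1%. Idh1, the mouse gene of the enzyme whose mutant form AG120 inhibits, had 0.194% and 0% in AG120 and 0.326% and 0.0218% in Vehicle, and Idh2 had 0.512% and 3.47% in AG120 and 1.19% and 2.10% in Vehicle. The groups overlapped at both. Whether a transgene carries the mutant enzyme is not given in the sources used here, and no transgene was measured.

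The TET genes, which encode the dioxygenases that 2-hydroxyglutarate inhibits, had low levels throughout. Tet1 had 4.40% and 0% in AG120 and 1.73% and 6.40% in Vehicle. Tet2 had 0.313% and 1.03% in AG120 and 0.0168% and 0.396% in Vehicle. Tet3 had 6.05% and 3.77% in AG120 and 1.42% and 2.38% in Vehicle, but -0.835 points from positions read in all 4 libraries. Among the methyltransferases, the maintenance enzyme's gene Dnmt1 had 0% and 0.316% in AG120 and 3.94% and 0.0380% in Vehicle. For the de novo enzymes, Dnmt3a had 2.36% and 1.39% in AG120 and 1.48% and 1.59% in Vehicle, and Dnmt3b 0.882% and 1.49% in AG120 and 2.61% and 4.01% in Vehicle. Only Tet3 and Dnmt3b did not overlap, and both turned direction on shared positions.

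Uhrf2, which encodes a reader of modified cytosine, had the smallest p of the list at 0.0977 before adjustment. Its window had 42.0% and 31.7% in AG120 and 7.75% and 2.27% in Vehicle, a gap of 31.8 points. From the 50 positions read in all 4 libraries it had 7.36% and 13.8% in AG120 and 5.12% and 5.39% in Vehicle. The direction held there and the gap was much smaller. Mbd4, a thymine glycosylase gene whose window overlaps Ift122, had 0% and 0.429% in AG120 and 4.76% and 1.56% in Vehicle. In the list of 2-oxoglutarate-dependent histone demethylases and hydroxylases, 7 of 15 measured genes were lower, 7 higher and 1 equal. Of them Kdm3b, an H3K9 demethylase gene measured at a gene end, had no methylated read in AG120 and 1.68% and 3.54% in Vehicle.

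Stem and progenitor genes had lower values with AG120 in 12 of 16 windows, and none passed the test. Over all 15598 windows 8199 were lower with AG120, 7109 higher and 290 equal. Of 24 listed genes 16 were measured, 4 were higher, and 8 were lower without overlap (50%) against 20.4% of all windows. Their median difference was -0.806 points, against -0.0914 over all windows, and their mean level was 2.23% and 2.04% in AG120 and 4.23% and 2.25% in Vehicle. Mycn, a MYC-family factor, had 0.0124% and 0% in AG120 and 2.53% and 0.991% in Vehicle. Tal1, a regulator of blood stem cells, had 0% and 0.0458% in AG120 and 5.05% and 1.68% in Vehicle. From positions read in all 4 libraries only Vehicle replicate 2 stood apart at both, with 2.05% at Mycn and 1.90% at Tal1. Kit, the receptor by which the cells were sorted, had 1% and 5.87% in AG120 and 19.4% and 0.137% in Vehicle, so its groups overlapped and 1 Vehicle library held its high value.

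Myeloid differentiation genes were split. Of 8 measured genes among 26 listed, 3 were lower and 5 higher and 0 passed, and the list's mean was 9.08% and 20.3% in AG120 and 2.77% and 4.19% in Vehicle. Cebpd, a C/EBP factor measured at a gene end, had 0.0323% and 0.145% in AG120 and 2.59% and 5.64% in Vehicle, and Id2, an inhibitor of helix-loop-helix factors, had 0% and 0% in AG120 and 1.26% and 6.51% in Vehicle. Cebpe, a C/EBP factor of granulocyte maturation that was named after its values were seen, had 61.9% and 83.0% in AG120 and 10.5% and 0% in Vehicle (unadjusted p = 0.0935). Cebpe and Irf8, at 0.0232% and 45.9% in AG120 and 0.972% and 3.51% in Vehicle, carried the list's mean, and Irf8 was high in 1 AG120 library. Itgam, which encodes the Cd11b used in the sort, had no window with enough reads.

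CDK inhibitor and tumour suppressor genes held wide gaps in both directions. Of 25 measured genes 0 passed, 14 were lower and 11 higher, with 6 lower and 6 higher without overlap (24% each), against 20.4% and 12.1% of all windows. Rarb, the retinoic acid receptor beta gene, had 55.2% and 55.4% in AG120 and 0.317% and 0% in Vehicle (unadjusted p = 0.0168, adjusted p = 1). In AG120 270 and 537 reads were methylated, of 489 and 969, and in Vehicle 1 and 0, of 315 and 597. The AG120 reads lay at 27 and 26 positions and the Vehicle reads at 52 and 33, of which only 3 were read in all 4 libraries, with 66.7% and 54.3% in AG120 and 0% and 0% in Vehicle. The Vehicle values at those 3 rest on 12 and 492 reads. Over the window, the methylated reads came from 6 positions in each AG120 library. AG120 read no position of the 300 bases around the Rarb start. The combination and AZA libraries had 57.3%, 21.7%, 37.7% and 24.3% in this window.

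The list also held 5 measured WNT antagonist genes, named after their values were seen, none of which passed the test. Sfrp1, Sfrp2 and Dkk1 were higher without overlap, Wif1 was lower without overlap, and Sfrp5 overlapped. Sfrp2 had 41.5% and 18.3% in AG120 and 6.63% and 2.77% in Vehicle, and Dkk1 had 13.0% and 19.9% in AG120 and 2.67% and 4.65% in Vehicle. Wif1 had 0% and 0.0390% in AG120 and 2.22% and 2.08% in Vehicle (unadjusted p = 0.0506), the smallest p of these genes. Apc, a scaffold of the beta-catenin destruction complex measured at a gene end, had 0% and 0.242% in AG120 and 15.8% and 8.56% in Vehicle, all of it at 1 position a library. From the 6 positions read in all 4 libraries Apc had 0% in every library. The INK4 gene Cdkn2a had 0.323% and 3.34% in AG120 and 3.08% and 3.69% in Vehicle. Its neighbour Cdkn2b had 1.79% and 0.0220% in AG120 and 0.474% and 1.46% in Vehicle, and the groups overlapped at both. Nras had 0% and 7.89% in AG120 and 0% and 0.176% in Vehicle, with the AG120 value in 1 library and 0% in all 4 on the positions they share.

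The RAS-MAPK list was near the background, and in the interferon list lower windows outnumbered higher ones. Of 28 measured RAS-MAPK genes 16 were lower and 12 higher, with 6 lower (21.4%) and 2 higher (7.14%) without overlap, against 20.4% and 12.1% of all windows. Spred1, an inhibitor of RAS signalling, had no methylated read in AG120, among 2471 and 1678 reads, and 2.05% and 1.82% in Vehicle. From the 19 positions read in all 4 libraries Spred1 had none in AG120 and 0% and 9.02% in Vehicle, so the gap there rested on Vehicle replicate 2. Of 16 measured interferon response genes 10 were lower and 6 higher, with 6 lower (37.5%) and 1 higher (6.25%) without overlap, against 20.4% and 12.1% of all windows. The list's mean went the other way, with 4.16% and 5.16% in AG120 and 1.56% and 3.91% in Vehicle. Among them Irf1, an interferon-induced factor, had 0.0294% and 0.0288% in AG120 and 0.810% and 0.747% in Vehicle.

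Germline genes, which are silenced by methylation in somatic cells, were highly methylated in both groups, and none passed the test. The 11 measured germline genes averaged 89.5% and 90.8% in AG120 and 93.0% and 97.4% in Vehicle, with 8 lower, 3 of them without overlap (27.3%, against 20.4% of all windows). Nlrp5, an oocyte gene, had 48.2% and 80.5% in AG120 and 87.8% and 91.0% in Vehicle, from nearly the same positions in all 4 libraries, and Sycp1, a gene of the synaptonemal complex, had 72.6% and 94.4% in AG120 and 95.5% and 100% in Vehicle. From the 7 positions read in all 4 libraries Sycp1 had 100% and 96.6% in AG120 and 100% and 100% in Vehicle, so most of its gap was not seen there. Dazl had 99.5% and 99.9% in AG120 and 99.6% and 99.9% in Vehicle. Of 16 measured imprinted genes 11 were lower and 5 higher, and the list's means overlapped, with 30.3% and 40.4% in AG120 and 38.7% and 40.9% in Vehicle. Rasgrf1, which is expressed from the paternal allele, had 3.79% and 12.1% in AG120 and 17.5% and 33.3% in Vehicle, and its groups overlapped on the 6 positions read in all 4 libraries.

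Hox and other developmental factor genes went both ways, with 14 of 31 lower and 17 higher. Gata4, a GATA factor of endoderm and heart measured at a gene end, had 0.326% and 0% in AG120 and 80.3% and 42.0% in Vehicle, but its window holds only 7 covered positions. From the 3 read in all 4 libraries Gata4 had 0% and 0% in AG120 and 33.3% and 0.422% in Vehicle, where the higher value rests on 6 reads. Pax3, a paired-box factor of neural crest measured at a gene end, had 0.0833% and 1.24% in AG120 and 10.5% and 15.5% in Vehicle. From the 14 positions read in all 4 libraries Pax3 had 0.0867% and 1.16% in AG120 and 10.1% and 14.6% in Vehicle, nearly the same values.

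Cell cycle and housekeeping genes had low levels, with 30 of 33 and 12 of 18 listed genes measured. Of 30 cell cycle genes 19 were lower, 10 higher and 1 equal, and the list averaged 2.09% and 1.08% in AG120 and 2.49% and 1.25% in Vehicle. Ccnd1, the cyclin D1 gene, had 0.0351% and 0.300% in AG120 and 11.3% and 2.03% in Vehicle at its gene end, and Rbl1, a pocket protein gene, had 0.00871% and 0% in AG120 and 0.772% and 0.241% in Vehicle. From positions read in all 4 libraries Rbl1 had 0% in every library, and Ccnd1 had 0% and 0.0222% in AG120 and 0% and 9.22% in Vehicle. Of 12 housekeeping genes 6 were lower and 6 higher. Tbp had 0.393% and 0.858% in AG120 and 0.0647% and 0.0513% in Vehicle, but 0% and 0% in AG120 and 0% and 0.101% in Vehicle from positions read in all 4 libraries.

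Markers of other cell types the sort could hold were thinly measured. Of 20 lymphoid genes 5 were measured, averaging 3.42% and 4.69% in AG120 and 7.49% and 9.19% in Vehicle. Of these 3 were lower and 2 higher with AG120, and 0 passed the test. At Ebf1 the groups overlapped, and the difference turned from -5.46 points to 5.54 on positions read in all 4 libraries. Bcl11b, a T-cell factor, had 4.67% and 5.79% in AG120 and 12.9% and 17.9% in Vehicle, and 3.29% and 4.72% against 12.5% and 14.9% from the 50 positions read in all 4 libraries. Of 17 erythroid and megakaryocytic genes 3 were measured and of 16 stromal and endothelial genes 6, with means of 0.715% and 0.888% in AG120 and 0.357% and 2.24% in Vehicle for the erythroid and megakaryocytic genes. The stromal and endothelial means were 11.6% and 39.7% in AG120 and 21.4% and 27.3% in Vehicle. The median and the mean difference had opposite signs in 6 of the lists, those of the IDH and methylation machinery, tumour suppressors, RAS-MAPK, interferon, stromal and developmental genes, and also over all windows. A change in the mix of cells and a change within cells cannot be told apart in these libraries, and methylation carries no level of expression.

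**Figure D5:**
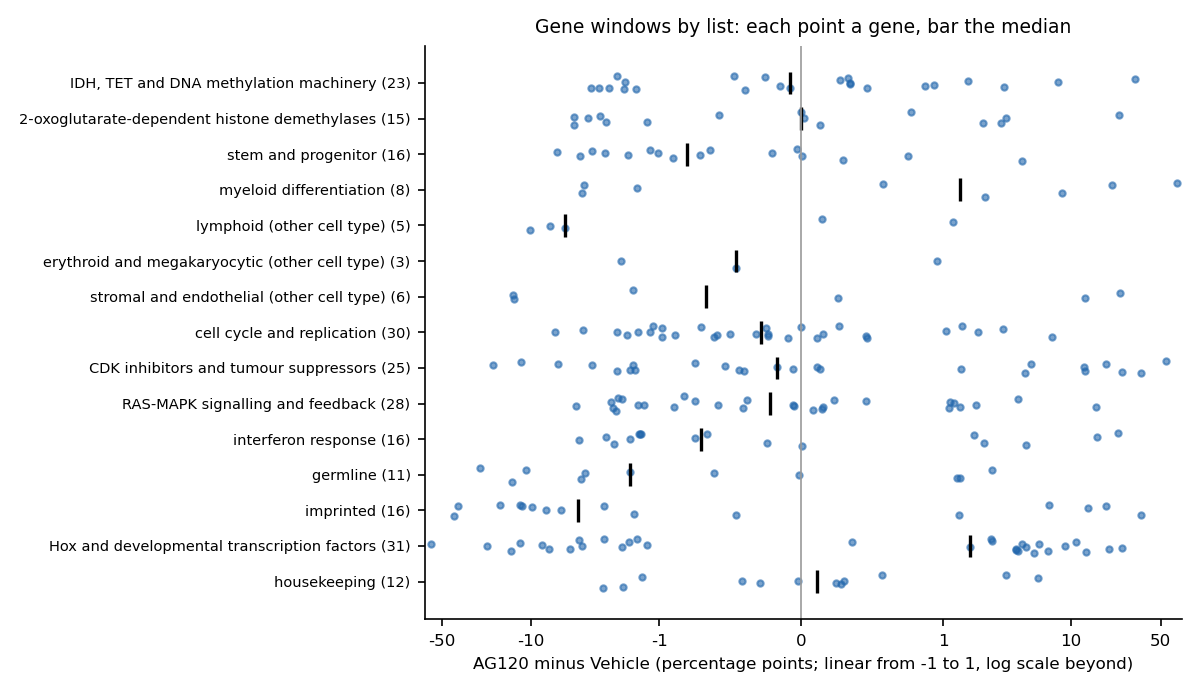
Difference in methylation level, AG120 minus Vehicle (percentage points, x axis, linear from -1 to 1 and logarithmic beyond), of each measured gene of 15 lists; bars are medians and the number of genes stands after each name. Points of most lists fall on both sides of 0, and the stem and progenitor list has 12 of 16 genes below it, against 8199 of all 15598 windows.

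The libraries of AZA and the combination, which share no library with AG120 or Vehicle, held the same contrast with AZA on both sides. There 31.0% and 29.4% of windows had no methylated read in the combination and 15.7% and 13.9% in AZA, so the 2 libraries with AG120 again held more. Depth moved with this contrast too, with median window totals of 1573 and 1572 reads in the combination and 3052 and 3196 in AZA. Shares in this paragraph come from the 14036 windows and 21004 positions with at least 20 reads in each of the 8 libraries. Over windows with a gap of any size, the shares in the same direction were close to those of all windows. Of 2956 windows lower with AG120 without overlap, 24.2% were also lower in the combination than in AZA without overlap, against 21.2% of all windows. Of 1732 windows higher with AG120, 15.1% were also higher there, against 12.2% of all windows. Larger gaps gave other shares. Of the 269 windows higher with AG120 by at least 20 points without overlap, 21.9% were also higher in the combination and 12.6% lower. Over all windows these shares were 12.2% and 21.2%. Of the 140 windows lower by as much, 17.1% were also lower in the combination and 15.0% higher. Single positions differed by direction. Of the 1466 positions higher with AG120, 31.2% were also higher in the combination than in AZA and 8.32% lower, against 7.46% and 4.54% of all positions. Of the 1049 positions lower with AG120, 12.1% were also lower there and 11.0% higher. Of all 21004 positions, 50.1% and 49.7% had no methylated read in the combination and 46.9% and 46.3% in AZA. A position with no methylated read in any of these libraries cannot stand apart. The shares of all positions are thus not a like background for positions chosen because they differed.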

How the data were processed

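Each row of the deposited table gives a CpG cytosine, with strands on separate rows, and holds 2 raw counts for every library, of methylated and of unmethylated reads, per the file headers. These are whole numbers, deposited by the authors with no normalization. The build was mm10, per the submitters' processing notes. These also name, without roles or order, Bismark 0.22.3, Trim Galore 0.4.4, edgeR 3.32, R 4.0.2, bcl2fastq 2.17.1.14 and SAMtools 1.4.1. Filters, deduplication, conversion rate and spike-in results were not given in the sources used here. Every count column could be matched to 1 library, and 0 columns of sample values went unused.

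Counts were summed over tiles and gene windows, and levels were means over features. Gene starts and strands came from RefSeq's promoter table on GRCm38.p6, which has the coordinates of mm10, and where a gene had several starts the one with most covered positions was used. Of 25748 autosomal genes with a start and strand and 21294 without strand, those with a window that passed the minimum were kept. edgeR 4.0.16 (R 4.3.3) was fitted with library terms and with 1 methylation term for each group, after features with only methylated or only unmethylated reads were left out. limma 3.58.1 on log2 ratios with a pseudocount of 2, DESeq2 1.42.0 and edgeR's likelihood ratio test were alternatives, and the procedure was tested on simulated data. The share expected in 20 reads drawn is the exact hypergeometric one.

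Members and gene lists were chosen with earlier results of these data known. Of 371 list entries 370 matched the gene table and 245 had a window. Genes were named by a rule. It took the 6 lower and 6 higher windows with the smallest p whose groups did not overlap. It also took the 4 lower and 4 higher tiles with the widest gap and at least 100 reads a library, the 2 lower and 2 higher positions with the smallest p, the 2 genes of each list with the smallest p, and Idh1, Idh2, the Tet and Dnmt genes, Nras, Cdkn2a, Cdkn2b, Kit and Itgam. The other called positions and genes marked in the text were added after their values were seen. Of the genes this rule names, 2 are not reported here. Feature by feature, the difference of replicate 1 from replicate 2 was not correlated between the groups. The correlation was 0.00261 over positions, 0.000902 over tiles and -0.00196 over windows. The mean tile level, however, was higher in replicate 2 than in replicate 1 in both groups. Whether the replicate numbers pair the libraries in such a way was not tested.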

Additional observations from a re-analysis of the deposited data

Results flagged for a closer look

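At 4 positions the AG120 effect differed between mice without and with AZA, by edgeR's test of the interaction over 54504 positions, while 0 tiles (1360 with an unadjusted p under 0.05) and 0 gene windows (443) passed it. In Sfi1, position 3193474 of chromosome 11 had 100% and 100% in AG120 and 86.6% and 78.7% in Vehicle, and 99.9% and 95.9% in the combination and 89.9% and 93.2% in AZA. The differences were 17.4 points without AZA and 6.35 with it, and their difference was 11.0 points (adjusted p = 0.00285). Position 52162225 of the same chromosome, 4318 bp from Olfr1372-ps1, gave -5.32 points without AZA and 12.4 with it, a difference of -17.7 points (adjusted p = 0.00321). In Otx2os1, position 48669613 of chromosome 14 gave -5.51 points without AZA and -27.8 with it, a difference of 22.2 points (adjusted p = 0.00889), and 1 AZA library at 53.3% set the larger effect beside 2.16% in the other. Position 145838638 of chromosome 5, 362 bp from Gm38744, gave 4.12 points without AZA and -11.2 with it, a difference of 15.3 points (adjusted p = 0.00189). All 4 were deeply read, with 725 to 6101 reads a library. Without AZA, position 52162225 had 100% and 89.4% in AG120 and 100% and 100% in Vehicle, so 1 library set its difference. The groups overlapped without AZA at position 48669613, with 11.3% and 0.389% in AG120 and 6.74% and 16.0% in Vehicle. Limma and the likelihood ratio test, which called 0 positions for AG120 against Vehicle, were not run for the interaction.

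The X chromosome was outside the comparison. Its 2965 positions with at least 20 reads in each library had a mean level of 66.2% in AG120, with 62.3% and 70.1% in the libraries, and 59.9% in Vehicle, with 59.1% and 60.7%. The groups did not overlap, and the SD was 5.53 points in AG120 and 1.135 in Vehicle (n = 2 each). The sex of the donor cells and hosts is not given in the sources used here.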

How the results depend on the processing

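The mean levels of positions and tiles stayed within the spread between replicates under every coverage minimum tried, and without 1 library at a time the difference ranged from -0.429 to 0.892 points for positions and from -0.958 to 1.003 for tiles. Counting every read once gave 7.36 points for positions and 10.2 for tiles, and the cause was not tested. The difference in the share of gene windows with no methylated read was 11.0 to 12.6 points without 1 library at a time and 3.10 points in 20 reads drawn, which has fewer reads by construction. For gene windows at 20 to 80%, an addition chosen after seeing the data, the difference was 1.01 to 6.56 points without 1 library at a time. Called tiles stayed at 0 under every alternative except the likelihood ratio test (541) and DESeq2 (46), and called windows at 0 except under the likelihood ratio test (348); the cause was not tested. Called positions numbered 12 and went to 7 with a minimum of 10 reads, 7 in a fit of all 8 libraries, 0 by the likelihood ratio test, 0 by limma and 1 to 107 without 1 library at a time. With a replicate block there were 27 called positions, 0 tiles and 0 windows, and whether the numbers pair the libraries is not known. Where a group is left with 1 library, it is assumed to vary like the other group. From positions read in all 4 libraries the difference turned direction at Ebf1 (5.54 points), Tbp (-0.0505), Idh2 (-2.14), Tet3 (-0.835), Dnmt3b (0.199) and Cdkn2b (2.43). Leaving out 1 library turned it at Ebf1 (-11.0 to 0.0419 points), Pdgfrb (-0.460 to 48.4), Cxcl12 (-28.96 to 1.30), Idh1 (-0.229 to 0.0751), Idh2 (-1.13 to 1.82), Tet1 (-4.20 to 0.466), Dnmt1 (-3.79 to 0.1201), Dnmt3a (-0.145 to 0.826), Nras (-0.0880 to 7.80), Cdkn2b (-0.943 to 0.824) and Kit (-15.9 to 3.30). Of 77 named features 14 turned direction under at least 1 alternative. A median of 19.6% of the covered positions of low windows was read in all 4 libraries, so windows and tiles largely compare different cytosines, and 2 libraries a group limit every comparison.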
